A study of Mus musculus with 8 samples.

Results

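Integrins are cell surface receptors made of 1 α and 1 β subunit that bind extracellular matrix, and laminins are the matrix proteins, each assembled from an α, a β and a γ chain, that form the scaffold of basement membranes. The genes described here are those whose mouse symbol starts with Itga or Itgb, or names a laminin chain (Lama, Lamb or Lamc with a number). The rule took 42 of 24411 genes in the count tables. Of these, 18 encode integrin α subunits, 9 encode integrin β subunits and 11 encode laminin chains. The other 4, Itgb1bp1, Itgb1bp2, Itgb3bp and Itgbl1, carry integrin names but encode no subunit and are described apart.

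In heart muscle each cardiomyocyte is wrapped in a basement membrane, and integrins of the β1 family together with dystroglycan tie it to the costameres, the sites where the contractile apparatus is anchored to the cell surface. Endothelial cells, pericytes and smooth muscle cells of the coronary vessels have basement membranes of their own, and fibroblasts hold the interstitial matrix through integrins that bind collagen, fibronectin and vitronectin. Integrins that contain the αv subunit are also known for releasing active TGF-β from its latent complex.

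Polyadenylated RNA of whole hearts was sequenced from 4 mice that lack the transcription factor Yin-Yang 1 (YY1) in the heart, called YY1 KO, and from 4 MerCreMer mice, called control. All 8 mice were C57BL/6, described by the submitters as male, and all had been operated 1 week earlier by transverse aortic constriction, which narrows the aorta and loads the left ventricle with pressure. Both groups therefore carry the surgery, and no unoperated heart is part of the comparison. MerCreMer is a Cre recombinase that needs a ligand to become active; the promoter that drives it, the ligand, its dose and the age of the mice do not appear in the labels. Each library is labelled as a separate mouse, and nothing in the labels pairs a YY1 KO mouse with a control mouse.

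Gene counts summed to between 14582605 and 16000455 reads per library, and values below are CPM, gene counts relative to the library total scaled by edgeR's TMM factors. Yy1 itself was at 18.0, 22.3, 19.9 and 23.8 CPM in the YY1 KO hearts, against 33.8, 37.2, 36.3 and 37.1 CPM in the control hearts. The submitters describe the deletion as specific to the heart, and the source of the remaining Yy1 reads was not tested. In all, 4 libraries went against the label male: YY1 KO 1 and 4 and control 1 and 4 had 2156 to 3512 reads of Xist and at most 2 reads of Y-linked genes, while the other four had 2519 to 3018 Y-linked reads. Each genotype thus holds 2 hearts of each kind, and results that change when 1 kind is used alone are given below.

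Across all genes, 21.6% of the 13506 tested were higher and 17.3% were lower in YY1 KO hearts at an edgeR quasi-likelihood adjusted p under 0.05, 38.9% in either direction, and for 38.3% the CPM of the groups did not overlap. Of the 42 genes, 39 had enough reads to be tested. Among those 39, 6 were higher, 6 were lower and 27 did not pass, so 30.8% were called, and the groups did not overlap for 10 of them (25.6%). These shares lie below those of all tested genes, so the number of calls is no result about these genes; what follows is which genes changed, in which direction and by how much. Their median log2 fold change was -0.19, beside 0.01 for all tested genes. With the 4 Y-positive hearts alone, 2 against 2, 14 of the 39 were called, and 9 of the 12 calls were kept. In the Xist-positive hearts, also 2 against 2, edgeR called 0 of the 39 and none of the 12 calls was kept; 10 of the 39 had an unadjusted p under 0.05, and DESeq2 called 6. All 12 called genes kept their direction in the Y-positive and in the Xist-positive hearts. Log2 fold changes in the Y-positive and the Xist-positive hearts were 0.91 and 0.75 for Itgb5 and 1.99 and 2.47 for Itgbl1. They were -1.21 and -0.61 for Itga1 and -1.29 and -0.55 for Itga6, and differences between the kinds of heart were not tested.

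**Figure D1:**
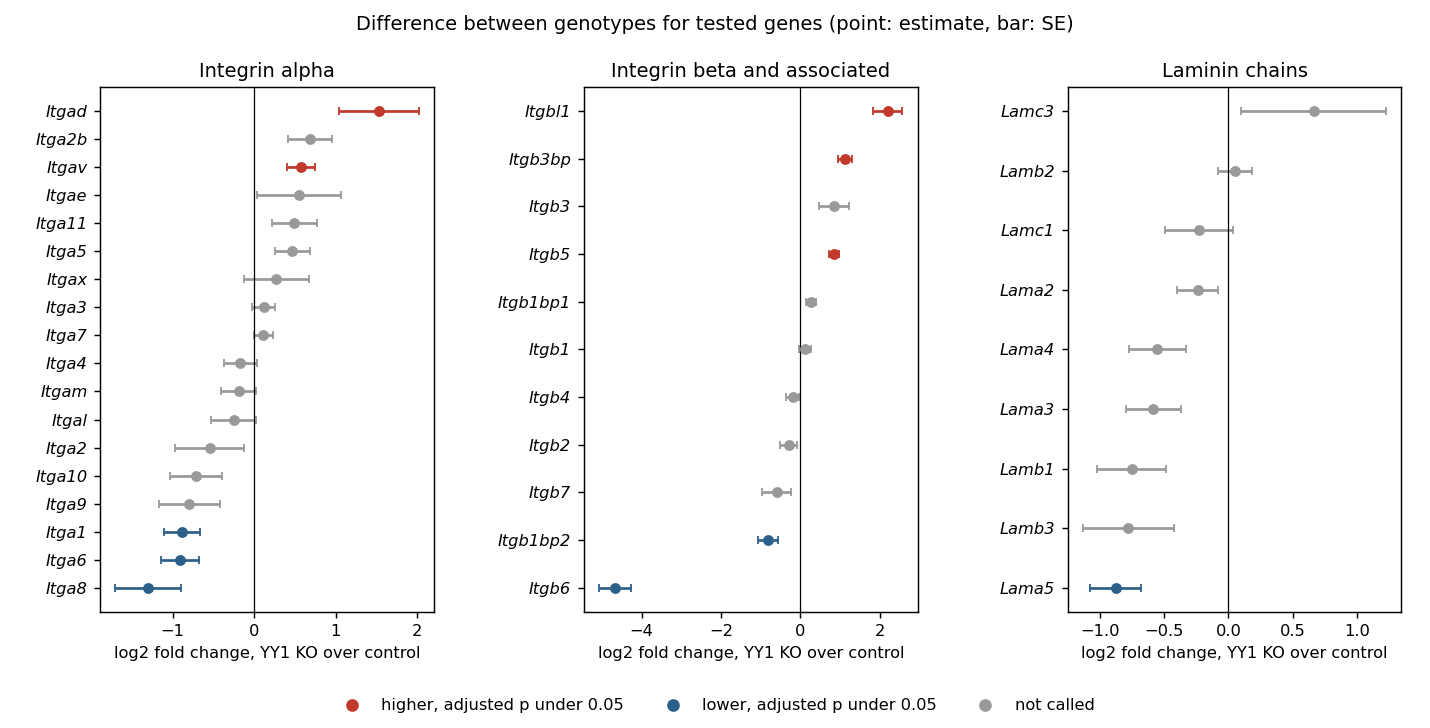
Log2 fold change of YY1 KO over control for the tested genes named in the text, by class, with bars of 1 standard error from edgeR and coloured points for genes with an adjusted p under 0.05. Itgb6 stands alone at -4.67, and Itgbl1 is at 2.21.

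Among the integrin β subunits the 2 that changed did so in opposite directions. They are 28.6% of the 7 tested, beside 38.9% of all tested genes called. Itgb6 encodes the β6 subunit, which pairs with αv, binds latent TGF-β and is known mainly from epithelia. Itgb5 encodes the β5 subunit, which also pairs with αv and is a receptor for vitronectin. The sequences upstream of both genes and of Itgbl1 are shown because YY1 binds DNA at promoters and these are the β subunit that fell, the β subunit that rose and the gene with the highest fold change. Each is the 250 bases before the RefSeq gene start (GRCm38.p6), 5′ to 3′ on the strand of the gene, with CG dinucleotides in capitals. The GENCODE gene ends given in this text for Itgb6 and Itgbl1 lie inside these windows, so part of each window falls within the gene by that annotation.
Itgb6, chr2:60722604-60722853, minus strand: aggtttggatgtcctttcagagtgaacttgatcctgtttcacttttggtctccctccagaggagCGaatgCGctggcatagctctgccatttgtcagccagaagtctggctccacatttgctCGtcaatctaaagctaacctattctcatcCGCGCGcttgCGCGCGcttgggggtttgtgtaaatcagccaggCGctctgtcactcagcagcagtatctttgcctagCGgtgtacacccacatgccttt
Itgb5, chr16:33829415-33829664, plus strand: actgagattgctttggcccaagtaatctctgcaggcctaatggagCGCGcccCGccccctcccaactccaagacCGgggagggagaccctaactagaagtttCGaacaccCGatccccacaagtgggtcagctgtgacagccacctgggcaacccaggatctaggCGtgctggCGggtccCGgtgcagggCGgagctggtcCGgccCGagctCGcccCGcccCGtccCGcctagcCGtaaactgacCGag
Itgbl1, chr14:123659890-123660139, plus strand: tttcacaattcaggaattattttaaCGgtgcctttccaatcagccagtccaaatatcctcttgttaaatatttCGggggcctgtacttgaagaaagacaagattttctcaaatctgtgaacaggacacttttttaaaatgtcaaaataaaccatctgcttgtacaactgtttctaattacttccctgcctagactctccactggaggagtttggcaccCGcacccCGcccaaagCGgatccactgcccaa
They hold 11, 18 and 5 CG dinucleotides in the order shown. Itgb6 has another RefSeq start inside the gene, which is not shown. Promoter windows of 300 bases, 250 before the start and 50 after it, were found for 27 of the 42 genes, including 8 of the 12 called. None of the 27 held AANATGGCG, a form of the YY1 motif, or its shorter core AANATGG on either strand, where the first lies within the second. Among 32851 mouse promoter windows of that length 2.38% held the longer and 16.1% the shorter motif, and among 13064 windows of tested genes the shares were 4.61% and 14.5%. A window without these letters says nothing of binding elsewhere.

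Itgb6 (chromosome 2, 60598292 to 60722643, minus strand, mm10) was nearly lost from the YY1 KO hearts. It had 1.19, 0.204, 1.17 and 2.31 CPM in the YY1 KO hearts, against 35.1, 29.0, 34.6 and 27.3 CPM in the control hearts. The highest YY1 KO heart was thus far below the lowest control heart, and the mean of 1.22 ± 0.86 CPM was 3.87% of the control mean of 31.5 ± 3.94 CPM (SD, n = 4 each). In reads this is 3 to 37 per YY1 KO library and 407 to 547 per control library. The log2 fold change was -4.67 ± 0.40 (SE; edgeR adjusted p = 0.000202), and it was -5.52 in the Y-positive and -4.16 in the Xist-positive hearts. Markers of epithelial cells were near the limit of detection: the 9 listed genes summed to 0.873 to 1.63 CPM in YY1 KO hearts and 1.01 to 1.64 CPM in control hearts, none passed the filter, and Krt5 and Krt14 had 0 reads in every library. Of the 3 nearest tested genes on either side of Itgb6, 1 was called, Cd302, which was higher with a log2 fold change of 0.45. Thus 1 of 6 neighbours was called, beside 38.9% of all tested genes, and a shared change of the region was not tested.

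Itgb5 (chromosome 16, 33829665 to 33949338, plus strand) had 294, 299, 274 and 205 CPM in the YY1 KO hearts, against 144, 142, 159 and 153 CPM in the control hearts. Every YY1 KO heart lay above every control heart, with YY1 KO 4 the lowest of its group. The means were 268 ± 43.6 CPM and 149 ± 7.98 CPM, a log2 fold change of 0.84 ± 0.13 (edgeR adjusted p = 0.00134). The 3 nearest tested genes at higher coordinates, Umps, Kalrn and Ccdc14, were also higher, with log2 fold changes of 0.28, 0.55 and 0.45, while the 3 at lower coordinates were not called. They lie at gaps of 5.44, 19.7 and 741 kb in the order named, and Umps passed narrowly (edgeR adjusted p = 0.0490). Thus 3 of 6 neighbours were called, beside 38.9% of all tested genes, and a shared change of the region was not tested.

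Itgb1, the β subunit shared by most matrix receptors of the heart, had 740.5, 724, 779 and 689 CPM in YY1 KO hearts, against 525, 617, 813 and 760.1 CPM in control hearts. The groups overlapped, control 1 and 2 being the lowest of all libraries, and the log2 fold change of 0.11 ± 0.15 did not pass (edgeR adjusted p = 0.571). Itgb2, the β subunit of leukocyte integrins, had 11.4, 8.42, 7.60 and 7.23 CPM in YY1 KO hearts and 8.31, 8.76, 12.2 and 13.3 CPM in control hearts, and also overlapped. The platelet and vascular β3 subunit, Itgb3, had a log2 fold change of 0.85 ± 0.37, and its edgeR adjusted p was 0.0984. It passed without control 4 (0.0321) and in the Y-positive hearts alone (0.0283). Itgb4 and Itgb7 were at 0.475 to 4.41 CPM and were not called; Itgb8 had 1 to 13 reads per library and Itgb2l none, and neither was tested.

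Set against length, as CPM per kilobase of exon, Itgb1 and Itgb5 made up most of the β subunits. Itgb1 was 68.9 ± 2.99% of their summed level in YY1 KO hearts and 75.8 ± 2.69% in control hearts, with groups that overlapped. For Itgb5 the share was 30.6, 31.4, 28.1 and 24.8% in YY1 KO hearts, against 22.7, 19.96, 17.5 and 17.9% in control hearts, and these groups did not overlap. Per kilobase of exon, the level of Itgb6 was 0.008 to 0.076 times that of Itgav in YY1 KO hearts and 1.14 to 2.06 times in control hearts. The corresponding ratio of Itgb5 to Itgav was 13.5 to 22.1 in YY1 KO hearts and 11.5 to 16.9 in control hearts, and overlapped. These shares and ratios are descriptions with no test.

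**Figure D2:**
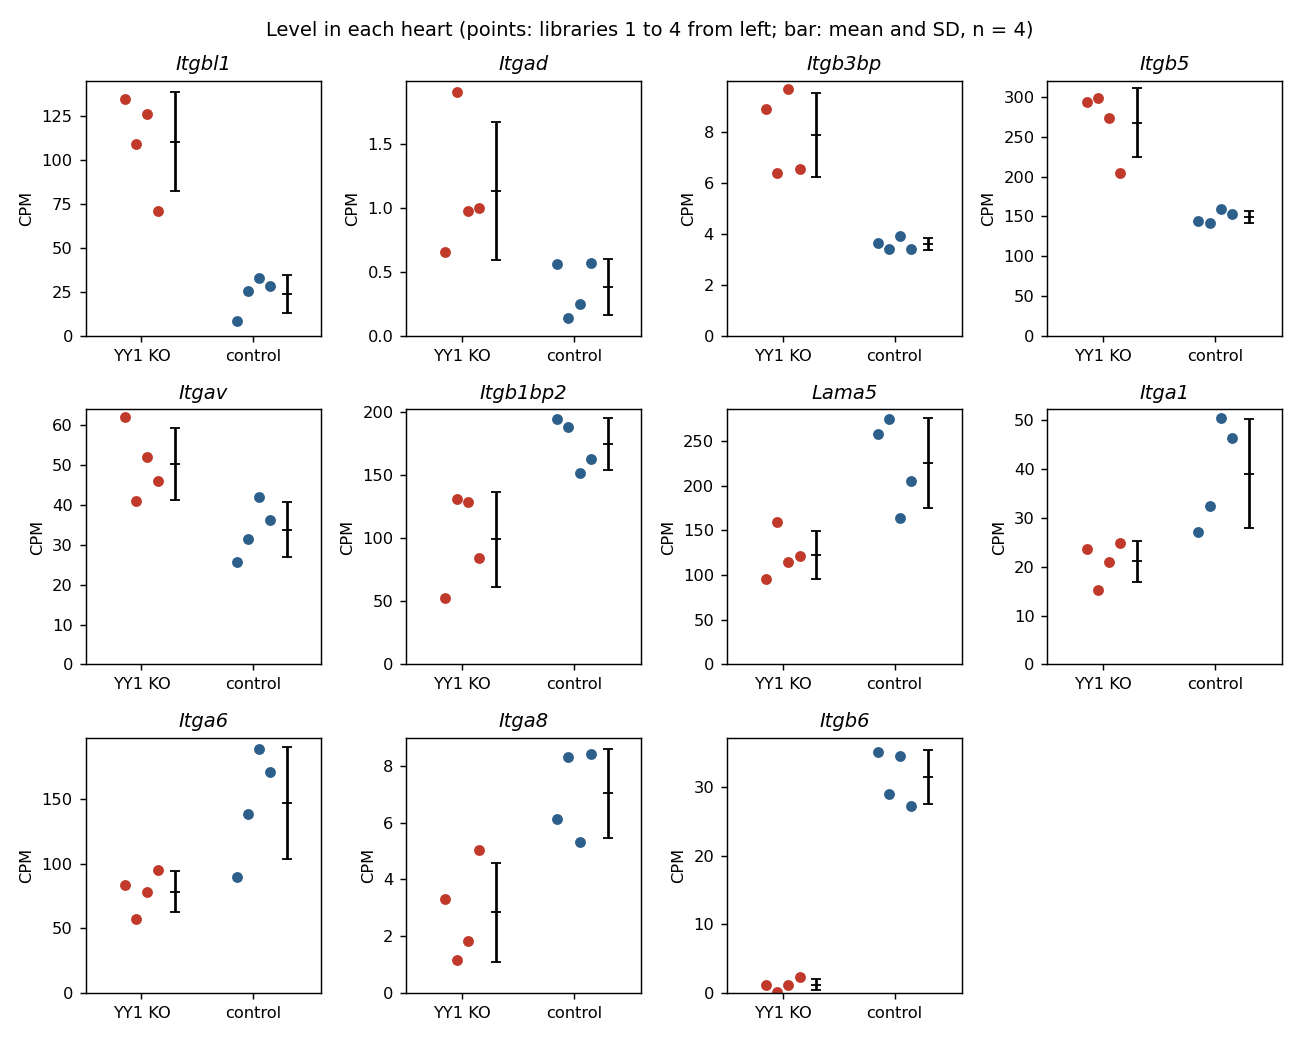
CPM of the called genes named in the text in each heart on linear axes, with YY1 KO left of control, points for hearts 1 to 4 and bars for the mean and SD (n = 4). The groups overlap for Itga6 and Itgav only, and most stranded reads over Itgad ran on the opposite strand.

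Among the 18 α subunits, 2 were called higher and 3 lower, and 13 did not pass. The share called was 27.8%, beside 38.9% of all tested genes, and the median log2 fold change was -0.03. Itgav encodes αv, the partner of β5, β6 and β3. It had 62.0, 41.0, 52.0 and 45.9 CPM in YY1 KO hearts, against 25.8, 31.3, 41.9 and 36.1 CPM in control hearts. YY1 KO 2 lay just below control 3, so the groups overlapped, and the log2 fold change was 0.57 ± 0.17 (edgeR adjusted p = 0.0268). The call is not firm: without YY1 KO 1 or 3 or control 1, 2 or 4 the edgeR adjusted p was 0.0507 to 0.0757, and the log2 fold change was 0.33 in the Y-positive and 0.80 in the Xist-positive hearts.

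The 3 α subunits that fell are receptors for laminin or collagen, or are known from smooth muscle and mesenchymal cells. Itga6 encodes α6, a laminin receptor subunit of endothelial and epithelial cells. It had 83.5, 57.0, 78.3 and 95.1 CPM in YY1 KO hearts, against 89.7, 138, 189 and 171 CPM in control hearts. Control 1 lay below YY1 KO 4, while the other three controls lay above every YY1 KO heart, and the log2 fold change was -0.91 ± 0.23 (edgeR adjusted p = 0.0146). Endothelial markers were lower too: 12 of them summed to 1674 to 2044 CPM in YY1 KO hearts and 2271 to 2996.5 CPM in control hearts, and no marker was at 0. In whole hearts, fewer cells of a type and less RNA per cell cannot be told apart, and the part of these cells in the values of Itga6, Itga1 and Lama5 was not tested.

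Itga1 encodes α1, a collagen receptor subunit that also binds laminin. It had 23.6, 15.3, 20.98 and 24.8 CPM in YY1 KO hearts, against 27.2, 32.4, 50.5 and 46.4 CPM in control hearts. The groups were separated by a narrow gap, and the log2 fold change was -0.88 ± 0.22 (edgeR adjusted p = 0.0126). Itga2, the neighbouring gene on chromosome 13 at a gap of 20.996 kb and the other classical collagen receptor subunit, had 0.340 to 0.998 CPM in YY1 KO hearts and 0.493 to 1.26 CPM in control hearts and did not pass. Reads of Pelo, which lies within Itga1 on the same strand, were counted apart from it and gave 17.1 to 23.2 CPM in YY1 KO hearts and 17.2 to 20.7 CPM in control hearts.

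Itga8 encodes α8, a receptor subunit for nephronectin and other ligands with an RGD motif. It had 3.32, 1.15, 1.82 and 5.05 CPM in YY1 KO hearts, against 6.13, 8.33, 5.31 and 8.41 CPM in control hearts. The groups were separated, YY1 KO 4 lying just under control 3, with a log2 fold change of -1.30 ± 0.40 (edgeR adjusted p = 0.0298). Its call was lost without YY1 KO 1 or 3 or control 2 or 4, with edgeR adjusted p of 0.0511 to 0.0855, and the log2 fold change was -2.21 in the Y-positive and -0.80 in the Xist-positive hearts.

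Itgad, which encodes the leukocyte subunit αD, was the other gene called higher. It had 0.653, 1.90, 0.974 and 0.998 CPM in YY1 KO hearts and 0.563, 0.142, 0.253 and 0.569 CPM in control hearts. Every control heart lay below the low-count filter of about 0.648 CPM, so Itgad was tested only because of its YY1 KO values. It is among the 6 genes counted as higher and the 10 counted as not overlapping above. The counts used here ignore strand, and the strand columns show that 95.5% of the stranded reads over Itgad, 463 against 22, ran opposite to the gene. Cox6a2, a gene for a heart and muscle subunit of cytochrome c oxidase, overlaps it on that strand and had 703 to 1011 CPM in YY1 KO hearts and 729 to 1241 CPM in control hearts. The counts without strand, which gave the call, held only 70 reads of Itgad in YY1 KO and 23 in control libraries. The 95.5% does not describe those reads, which numbered 11 to 28 per YY1 KO library and 2 to 9 per control library. On the annotated strand Itgad had 2 to 6 reads in YY1 KO libraries and 1 or 2 in control libraries, too few to test. Most of the reads behind the call in YY1 KO libraries thus ran opposite to Itgad, and whether they came from Cox6a2 was not tested. The call therefore cannot be assigned to Itgad, and on annotated-strand counts 2 integrin subunits were higher instead of 3. For Itga4 and Itgae the opposite-strand share was 27.9% and 23.7%, and for the other 39 genes it was at most 8.49%.

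The most abundant α subunits per kilobase of exon, Itga7 and Itga5, did not pass the test. Itga7, the laminin receptor subunit of striated muscle, had 362, 363, 374 and 272 CPM in YY1 KO hearts, against 326, 300.2, 320.1 and 321 CPM in control hearts. Its log2 fold change was 0.11 ± 0.12 (edgeR adjusted p = 0.46), with YY1 KO 4 below every other heart. Itga5, the fibronectin receptor subunit, had 241, 208, 161 and 203 CPM in YY1 KO hearts, against 94.9, 125, 186 and 181 CPM in control hearts. YY1 KO 3 fell among the controls, and the log2 fold change of 0.47 ± 0.22 did not pass (edgeR adjusted p = 0.118).

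Itga9, a receptor subunit for tenascin-C and other ligands, had 150.2, 57.5, 99.5 and 156 CPM in YY1 KO hearts, against 103, 165, 287 and 248 CPM in control hearts. Here control 1 lay among the YY1 KO hearts, the log2 fold change was -0.80 ± 0.37 and the edgeR adjusted p was 0.12. Without control 1 the gene was called, at -1.02 (edgeR adjusted p = 0.0400). Itga3, another laminin receptor subunit, had 19.1, 16.3, 13.8 and 19.3 CPM in YY1 KO hearts and 16.1, 14.5, 14.2 and 18.4 CPM in control hearts, with no difference past the spread.

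The remaining 9 α subunits, Itga2, Itga2b, Itga4, Itga10, Itga11, Itgae, Itgal, Itgam and Itgax, were at 0.285 to 15.97 CPM and none was called. Itga2b, the platelet subunit αIIb, was nearest to the threshold, with a log2 fold change of 0.69 ± 0.27 (edgeR adjusted p = 0.0726), and it passed without YY1 KO 4 (0.0246). Itga10 passed without the same heart (0.00816) and Itga11, a collagen receptor subunit of fibroblasts, without YY1 KO 2 (0.00826). The leukocyte subunits Itgal, Itgam and Itgax had log2 fold changes of -0.25, -0.19 and 0.27.

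As a share of the summed level of the α subunits per kilobase of exon, Itga7 made up 34.6 ± 6.07% in YY1 KO hearts and 32.0 ± 7.25% in control hearts. Itga5 made up 34.5, 37.1, 28.0 and 33.6% in YY1 KO hearts, against 19.996, 22.4, 24.7 and 25.2% in control hearts. Itga6 made up 7.04 ± 1.29% and 12.7 ± 1.58% in YY1 KO and control hearts, and Itgav 3.77 ± 0.409% and 2.49 ± 0.127%. The groups of Itga5, Itga6 and Itgav did not overlap on this scale, which sets each gene against the other α subunits of the same heart. The shares depend on the length used. With the longest transcript in place of all exons, Itga7 made up 45.7% in YY1 KO hearts and 41.5% in control hearts. Itga5 then made up 24.6% and 16.7%, and Itga6 9.75% and 17.2%, in the same order. The groups of Itga5, Itga6 and Itgav stayed apart with that length. In CPM, control 3 and 4 were above control 1 and 2 for Itga5, Itga6, Itga9, Itga1, Lamb1, Lamc1 and Lama4.

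**Figure D3:**
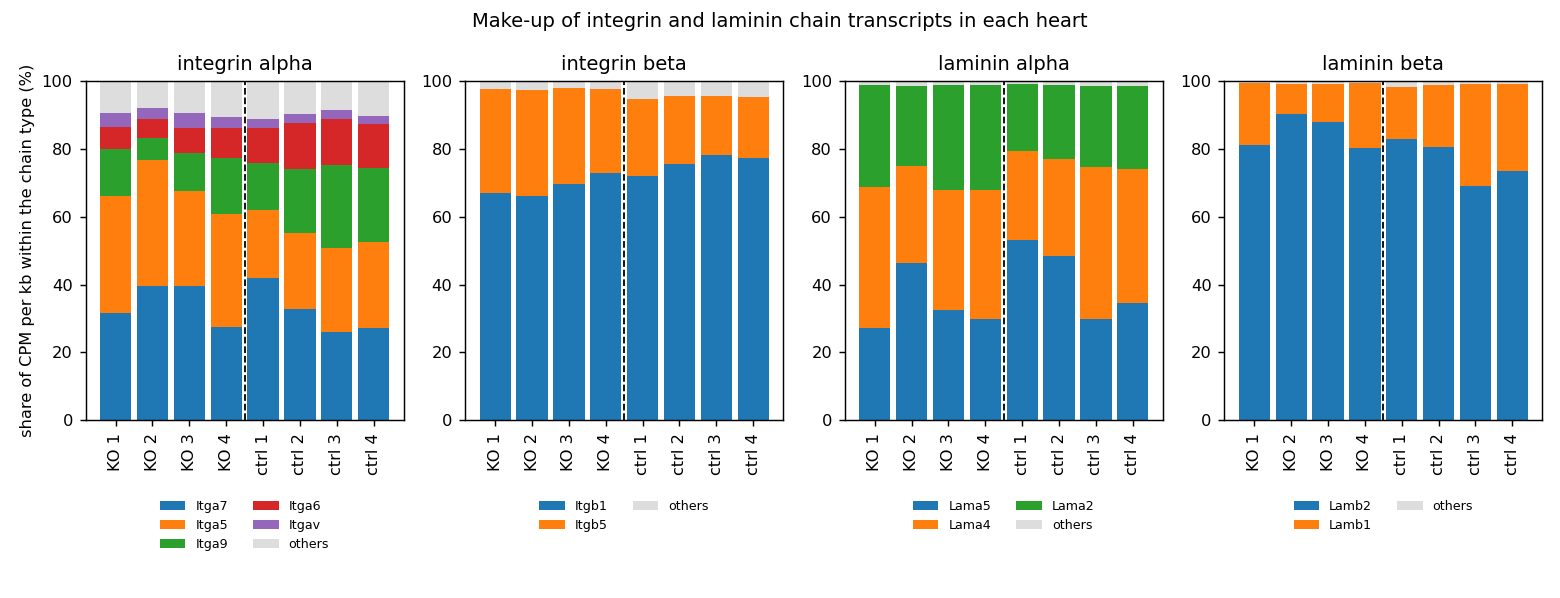
Share of each gene in the summed level per kilobase of exon of its chain set, as stacked bars in percent, 1 bar per heart, for integrin α and β subunits and laminin α and β chains, with YY1 KO hearts left of control hearts. Itgb5 is at 24.8 to 31.4% in YY1 KO hearts, against 17.5 to 22.7% in control hearts.

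Of the 4 genes with integrin names that encode no subunit, 2 were higher and 1 was lower. That is 75% called, beside 38.9% of all tested genes, and it rests on 4 genes only. Itgbl1 (chromosome 14, 123659971 to 123975618, plus strand) encodes a secreted protein with repeats like those of integrin β subunits. It had 134, 109, 126 and 71.1 CPM in YY1 KO hearts, against 8.66, 25.8, 32.7 and 28.3 CPM in control hearts. The lowest YY1 KO heart lay well above the highest control heart, and the log2 fold change was 2.21 ± 0.37 (edgeR adjusted p = 0.00202).

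Itgb3bp encodes a nuclear protein of the centromere, also known as CENP-R, that was first found as a partner of the β3 tail. It had 8.90, 6.38, 9.68 and 6.55 CPM in YY1 KO hearts, against 3.66, 3.42, 3.92 and 3.41 CPM in control hearts. The groups were separated and the log2 fold change was 1.13 ± 0.18 (edgeR adjusted p = 0.00174). It shares part of its locus with Efcab7 and Pgm1 on the opposite strand, but 1.68% of its stranded reads ran that way.

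Itgb1bp2 encodes melusin, a chaperone of striated muscle that binds the β1 tail and is known for its part in the hypertrophic response to pressure overload. It had 52.8, 131, 128 and 84.5 CPM in YY1 KO hearts, against 195, 188, 152 and 162 CPM in control hearts. All YY1 KO hearts lay below all control hearts, with a log2 fold change of -0.81 ± 0.26 (edgeR adjusted p = 0.0338). The log2 fold change was -0.41 in the Y-positive hearts, where it was not called (edgeR adjusted p = 0.102), and -1.38 in the Xist-positive hearts. The call was lost without YY1 KO 4 or control 1, 2 or 4 (edgeR adjusted p 0.0564 to 0.0799). Itgb1bp2 lies on the X chromosome. Itgb1bp1, which encodes ICAP-1, a protein of the β1 tail, had 34.6, 43.5, 33.9 and 30.1 CPM in YY1 KO hearts and 26.8, 30.8, 29.9 and 30.6 CPM in control hearts. It did not pass (log2 fold change 0.26 ± 0.12, edgeR adjusted p = 0.106), but did without YY1 KO 4 (0.0467).

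Among the laminin chains Lama5 fell, and 8 of 10 tested did not pass. The share called was 20%, beside 38.9% of all tested genes. Lama5 (chromosome 2, 180176373 to 180225859, minus strand) encodes the α5 chain of the mature vascular basement membrane. It had 95.6, 159, 114 and 121 CPM in YY1 KO hearts, against 258, 275, 164 and 205 CPM in control hearts. YY1 KO 2 lay just below control 3, with the groups apart, and the log2 fold change was -0.88 ± 0.20 (edgeR adjusted p = 0.00778). It was -0.70 in the Y-positive hearts, where it was not called, and -1.09 in the Xist-positive hearts.

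The other α chains of the heart are α4, in endothelium and around muscle fibres, and α2, the main chain of the muscle basement membrane. Lama4 had 154, 104, 132 and 164 CPM in YY1 KO hearts, against 134, 173, 259 and 248 CPM in control hearts (log2 fold change -0.55 ± 0.22, edgeR adjusted p = 0.0775). Lama2 had 151, 117, 156 and 179.8 CPM in YY1 KO hearts, against 138, 177, 189 and 209 CPM in control hearts (log2 fold change -0.24 ± 0.16, edgeR adjusted p = 0.262). In both genes control 1 lay among the YY1 KO hearts, as did control 2 for Lama2. Without control 1 Lama4 was called (edgeR adjusted p = 0.0180). Lama1, the chain of early embryos, had 2 reads in all 8 libraries together and was not tested.

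Lamb2, the β2 chain, had 573, 739, 699.9 and 619 CPM in YY1 KO hearts, against 721, 630.4, 537 and 653 CPM in control hearts, with groups that overlapped fully (log2 fold change 0.05 ± 0.13, edgeR adjusted p = 0.776). Lamb1, the β1 chain, had 208, 116, 146 and 244 CPM in YY1 KO hearts, against 218, 235, 381 and 370.4 CPM in control hearts. Its log2 fold change of -0.75 ± 0.27 missed the threshold (edgeR adjusted p = 0.0522) and passed it, on the lower side, without control 1 (0.0314), without YY1 KO 4 (0.0294) and with a term for the sex-linked reads (0.0447).

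Lama3 and Lamb3, the genes of the α3 and β3 chains known from epithelial basement membranes, were low in every heart. Lama3 had 3.56, 4.41, 4.09 and 4.68 CPM in YY1 KO hearts, against 4.16, 6.12, 6.82 and 7.97 CPM in control hearts (log2 fold change -0.58 ± 0.21, edgeR adjusted p = 0.0553). Lamb3 had 4.51, 8.62, 6.89 and 4.24 CPM in YY1 KO hearts, against 18.0, 8.97, 6.19 and 8.47 CPM in control hearts (log2 fold change -0.78 ± 0.35, edgeR adjusted p = 0.111). Neither passed, and Lama3 did without control 1 (0.0107), on the lower side. RNA levels of this kind do not give the amount of assembled laminin.

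Lamc1, the gene of the common γ1 chain, had 444, 291, 375 and 465 CPM in YY1 KO hearts, against 269.5, 375, 609 and 595 CPM in control hearts, and did not pass (log2 fold change -0.23 ± 0.27, edgeR adjusted p = 0.513). Lamc3 had at most 2.73 CPM in any heart and did not pass.

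**Figure D4:**
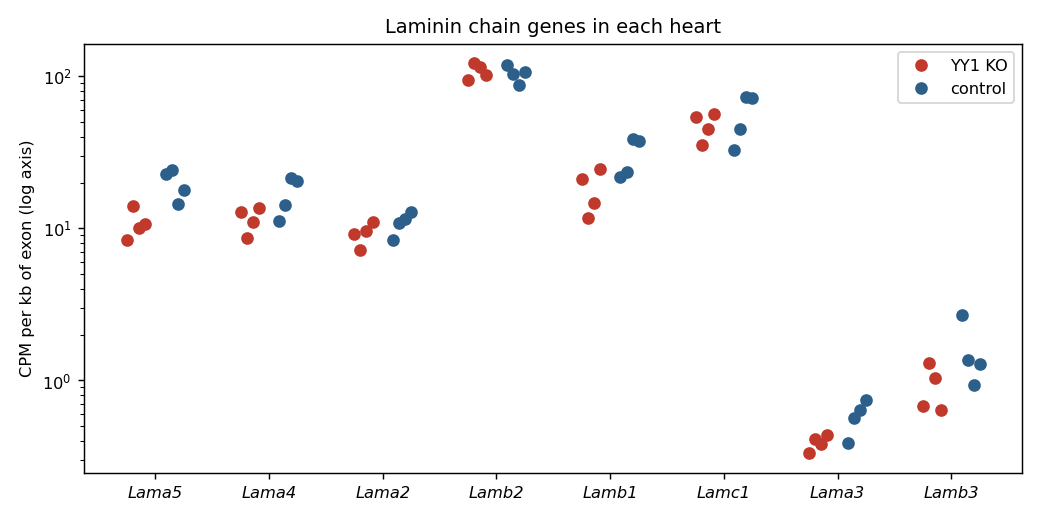
Level of 8 laminin chain genes in each heart in CPM per kilobase of exon on a log axis, with YY1 KO left of control for each gene and 1 point per heart. Lama5 is at 8.40 to 13.97 in YY1 KO hearts and 14.4 to 24.1 in control hearts, while Lama4, Lama2, Lamb1, Lamb2, Lamc1, Lama3 and Lamb3 overlap between the groups.

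Per kilobase of exon, Lamb2 made up 84.9 ± 4.99% of the β chains in YY1 KO hearts and 76.5 ± 6.29% in control hearts, and Lamb1 14.4 ± 5.19% and 22.4 ± 6.73%. Lama5 made up 34.0 ± 8.46% of the α chains in YY1 KO hearts and 41.5 ± 11.05% in control hearts, and Lama2 28.9 ± 3.45% and 22.5 ± 2.21%. The groups overlapped for these 4 shares. The picture depends on the length used: with the longest transcript in place of all exons, Lama2 made up 27.8 to 33.4% in YY1 KO hearts and 24.0 to 26.6% in control hearts, which did not overlap, and Lama4 was the highest in both groups, at 45.8% in YY1 KO and 45.7% in control hearts.

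The proteins that link integrins to actin came out on both sides. Of 29 adaptor and linker genes, 27 were tested, 7 were higher and 3 lower, and the median log2 fold change was 0.21. Kank1, which connects talin to microtubule anchoring, was higher (0.50 ± 0.09, edgeR adjusted p = 0.00234), as was Actn1, a nonmuscle α-actinin (1.22 ± 0.28, edgeR adjusted p = 0.00943). Lims1, which encodes PINCH-1 and sits in a complex with integrin-linked kinase and parvin, was lower (-0.49 ± 0.09, edgeR adjusted p = 0.00401), as was Parvb (-0.42 ± 0.10, edgeR adjusted p = 0.00923). The count of higher genes was 4 without YY1 KO 1, and 2 without YY1 KO 3 or control 2; it was 1 in the Y-positive hearts alone.

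Of 40 focal adhesion signalling genes, all tested, 7 were higher and 4 lower, and the median log2 fold change was -0.09. Zyx, which encodes the stress-responsive actin adaptor zyxin, was higher (1.11 ± 0.20, edgeR adjusted p = 0.00317), as was Sorbs2, an adaptor of the Z disc (1.06 ± 0.20). Dock1, an activator of Rac, was lower (-0.69 ± 0.12, edgeR adjusted p = 0.00225), as was Git1 (-0.41 ± 0.09). The lower count was 8 without control 1 and 2 without YY1 KO 3.

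Of 29 basement membrane genes other than laminins, 26 were tested, 6 were higher and 3 lower, with a median log2 fold change of -0.12. Col4a5 (0.73 ± 0.13) and Col4a6 (1.19 ± 0.29), collagen IV chains encoded side by side, and Agrn (0.65 ± 0.13), the laminin-binding proteoglycan agrin, were higher. Pxdn, the peroxidase that crosslinks collagen IV, was lower (-1.29 ± 0.29, edgeR adjusted p = 0.00750). The lower count was 1 without YY1 KO 1, 2 or 3 or control 3 or 4, and 5 without YY1 KO 4.

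Of 16 genes for laminin receptors other than integrins and for proteins associated with them, 2 were higher and 2 lower, with a median log2 fold change of -0.06. Sgca, which encodes a sarcoglycan of muscle, was lower (-0.93 ± 0.20, edgeR adjusted p = 0.00588), while Dmd, which encodes dystrophin (0.70 ± 0.17), and the syndecan Sdc4 (0.50 ± 0.12) were higher. The lower count was 1 without YY1 KO 1, 3 or 4 or control 2 or 4, and 0 in the Y-positive hearts alone.

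Of 39 genes for integrin ligands other than laminins, 29 were tested, 6 were higher and 3 lower, with a median log2 fold change of -0.02. Vtn, the vitronectin gene, was lower (-1.24 ± 0.19, edgeR adjusted p = 0.00141), as was L1cam (-0.77 ± 0.16). Tgfb3 (1.33 ± 0.27, edgeR adjusted p = 0.00488) and Adam9 (0.70 ± 0.15) were higher. The lower count was 5 without YY1 KO 4 or control 1. In these 5 lists the share of genes called was 25.0 to 37.0%, below the share over all tested genes.

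Among the markers of vascular cells, more were lower than higher in YY1 KO hearts. Of 12 endothelial markers 7 were lower and none was higher, with a median log2 fold change of -0.42. In this list, and in the pericyte and smooth muscle list below, 58.3% were called, beside 38.9% of all tested genes. Kdr, the main VEGF receptor, was at -1.21 ± 0.18 (edgeR adjusted p = 0.00129), Emcn at -0.57 ± 0.10, Tie1 at -0.66 ± 0.17 and Cdh5, VE-cadherin, at -0.66 ± 0.18. The count of lower markers was 4 without YY1 KO 2, and in the Y-positive hearts alone 5 were lower and 1 higher. Of 12 pericyte and smooth muscle markers 6 were lower, among them Rgs5 (-0.85 ± 0.14), Kcnj8 (-0.72 ± 0.14) and Abcc9 (-1.34 ± 0.27), and 1, Cnn1, was higher (2 without YY1 KO 2). Their sum was 887 to 1105 CPM in YY1 KO hearts and 1316 to 1590.5 CPM in control hearts, none was at 0, and their part in the values of Itga8 and Itga1 was not tested. Vtn is in this list as well as among the ligands, and Egfl7 among both the endothelial and the basement membrane genes.

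Of 12 cardiomyocyte markers 2 were higher and 3 lower, their sum being 64801 to 90771 CPM in YY1 KO hearts and 86794 to 112154 CPM in control hearts, which overlapped. The share called was 41.7% here and 8.33% for the fibroblast markers below, beside 38.9% of all tested genes. The cardiomyocyte count lies near that share and is no result about these cells. Myl2 (-1.27 ± 0.21), Ckm (-3.20 ± 0.68) and Actc1 (-0.73 ± 0.18) were lower, while Mybpc3 (0.50 ± 0.15) and Myom1 were higher. The higher count was 0 without YY1 KO 2 or 3 or control 1 or 4; it was 1 without YY1 KO 4 or control 2 or 3, and 0 in the Y-positive hearts alone. Itgb1bp2 and Itga7, both genes of striated muscle, stand beside this list with the values given above. Of 12 fibroblast markers 1, Pdgfra, was higher (0.39 ± 0.11) and none lower, and the sum was 3885 to 4677 CPM in YY1 KO hearts and 2769 to 3822 CPM in control hearts, with no overlap. The fibroblast call was lost without YY1 KO 3 or 4 or control 1 or 2, and 2 were higher without YY1 KO 1 or 2 or control 3; 1 marker was lower without YY1 KO 4 and in the Y-positive hearts alone. Their part in the values of Itgav, Itgb5 and Itgbl1 was not tested.

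Among blood cell lists, 1 of 10 general leukocyte markers was lower (sums of 76.1 to 148 CPM in YY1 KO hearts and 105 to 199.998 CPM in control hearts), and the 11 tested macrophage and monocyte markers had edgeR adjusted p of 0.361 or more. The neutrophil list had 1 of 3 tested higher (S100a9), the T and NK cell list 1 of 1 lower (Cd4), the dendritic cell list 1 of 5 lower (Zbtb46) and the B cell list 1 of 2 lower (Blk). The platelet list had 1 of 5 higher (Gp1ba), with sums of 32.2 to 45.1 CPM in YY1 KO hearts and 22.3 to 29.5 CPM in control hearts, beside Itga2b and Itgb3, whose values did not pass. The stranded reads ran opposite to the gene at 97.8% for Gp1ba and 94.4% for Blk, and neither passed the filter on annotated-strand counts, so those calls cannot be assigned to these genes. The platelet sums above include Gp1ba, and on annotated-strand counts 0 of the 4 tested platelet genes were called. In the other called genes of the lists that share was at most 8.45%. The red cell genes Alas2 and Slc4a1 had edgeR adjusted p of 0.0704 or more, and the 4 globin genes had 0 reads. The lymphatic list had 1 of 6 lower (Prox1), the Schwann cell and nerve list 2 of 9 higher (Ncam1 and Scn7a) and 1 lower (Kcna1), and the mesothelial genes Krt18 and Wt1 had edgeR adjusted p of 0.0887 or more. No adipocyte marker passed the filter. These counts rest on single genes and ran from 0 to 4 when 1 library was left out. Beside them, 38.9% of all tested genes were called.

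**Figure D5:**
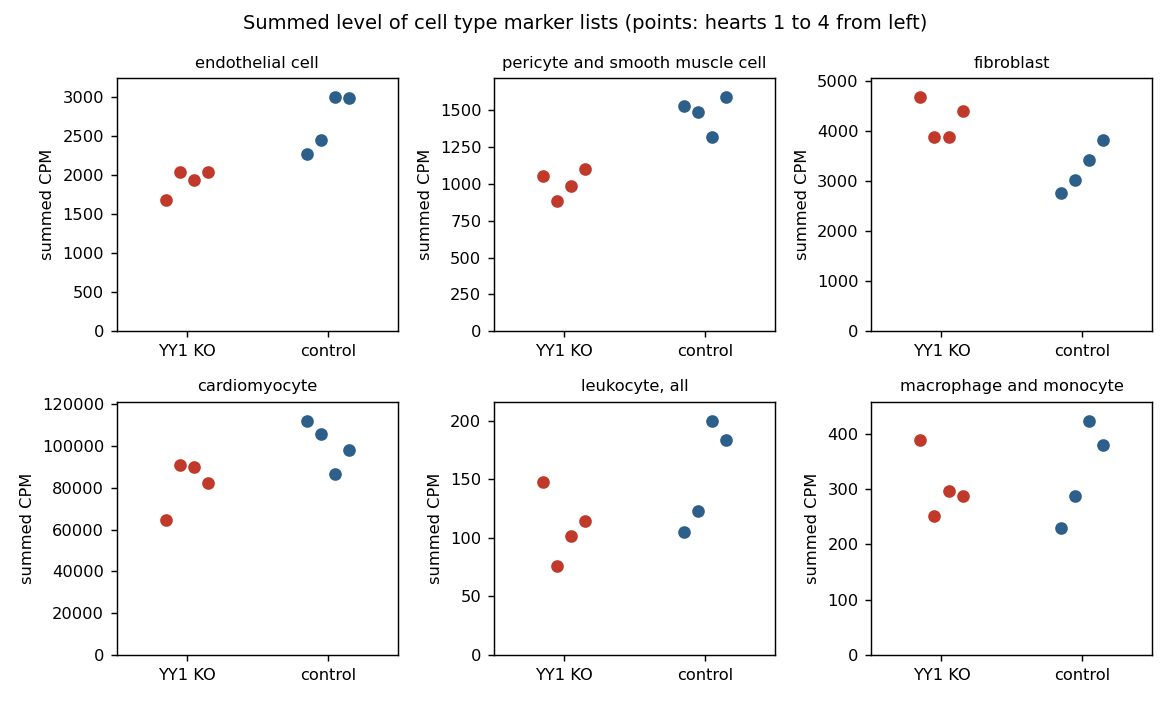
Summed CPM of the endothelial, pericyte and smooth muscle, fibroblast, cardiomyocyte, leukocyte and macrophage marker lists, 1 point per heart on linear axes from 0, with YY1 KO left of control. The endothelial sums are 1674 to 2044 CPM in YY1 KO hearts and 2271 to 2996.5 CPM in control hearts, and do not overlap.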

How the data were processed

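Polyadenylated RNA of 8 snap-frozen mouse hearts was sequenced. The authors trimmed reads with Trimmomatic and aligned them to mm10 with STAR, per the submitters' processing notes; their versions and the gene annotation used do not appear in the labels. The deposited values are raw read counts per gene without strand, beside counts for each strand. Of 23869112 to 23966753 reads per library, 33.0 to 38.9% had no gene assigned and were left out. Coordinates come from a GENCODE annotation of GRCm38, the assembly of mm10, which matched all 42 symbols, and promoter sequences from RefSeq (GRCm38.p6).

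Counts without strand were tested with edgeR 4.0.16 (TMM scaling, quasi-likelihood F test, Benjamini-Hochberg adjustment over 13506 genes, threshold 0.05), YY1 KO against control. Genes needed about 10 counts (0.648 CPM) in 4 libraries. Levels between genes use CPM per kilobase of the union of exons. The code was tested on simulated data. No 2 libraries of a group were alike within sampling noise (chi-square over degrees of freedom 13.9 to 92.0). Some genes are included in the counts, medians and totals but not reported by name here. The genes and lists were chosen with earlier results of these data known. Genes of the rule could be named, those called or among the 10 highest per length in their class with values in every library, plus Yy1 and up to 4 genes per list with the smallest p. The other called genes of the marker lists, overlapping genes and neighbours were named after their values were seen. The lists cover 5 groups of adhesion genes and 17 cell types. Alternatives were RLE, upper-quartile and plain library-size scaling, DESeq2 1.42.0, limma-voom 3.58.1, other filters, annotated-strand counts, a replicate block, a term for sex-linked reads and each library left out; fits on the Y-positive or Xist-positive hearts alone were added after seeing the data.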

Additional observations from a re-analysis of the deposited data

Results flagged for a closer look

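Among 78 combinations of gene and group, 2 held a heart far from the other hearts of its group; by chance about 1 in 20 groups would. Itga7 was at 272 CPM in YY1 KO 4, while the other YY1 KO hearts lay between 362 and 374 CPM. Itga2b was at 2.85 CPM in control 4, while the other control hearts lay between 2.14 and 2.25 CPM. YY1 KO 4 was also the lowest YY1 KO heart for Itgb5 and Itgbl1.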

How the results depend on the processing

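All 12 calls were kept under RLE, upper-quartile and library-size scaling, DESeq2, limma-voom and no low-count filter, and the 11 still tested were kept with a filter of 1 CPM and with annotated-strand counts, where Itgad was not tested. The count of lower laminin chains, 1 in the fit reported, was 4 with DESeq2, 3 with RLE, 2 with upper-quartile scaling and 2 with the sex term, as Lamb1, Lama3 or Lama4 passed. With the replicate block 1 integrin subunit was higher, 0 associated genes and 2 laminin chains were lower, and 9 of the 12 calls were kept (Itgav, Itgad and Itgb1bp2 were lost); same-numbered hearts correlated at -0.464, 0.337, -0.0561 and 0.271, YY1 KO 4 being the 1 heart that correlated best with its own number, so the numbers were not taken as pairs. In the Y-positive hearts 1730 genes were higher against 2911 in all hearts, 0 associated genes and 2 laminin chains were lower, and Lamb3 turned to 0.015. In the Xist-positive hearts, 2 against 2, edgeR and limma-voom called 0 genes (3451 and 3477 at an unadjusted p under 0.05) and DESeq2 1328, with 0, 0 and 6 of the members called and 10 at an unadjusted edgeR p under 0.05; there Lamc1 turned to 0.071, Itgam to 0.051, Itga7 to -0.030, Itgae to -0.061, Lamc3 to -0.11 and Lamb2 to -0.21, none of them called in all hearts. Leaving out 1 heart gave 1 to 4 higher and 3 to 5 lower integrin subunits, 2 to 3 higher and 0 to 1 lower associated genes, 1 to 4 lower laminin chains, and 2192 to 2905 higher and 1668 to 2439 lower genes in all. Integrin subunits called higher were 1 without YY1 KO 3 or control 2, and the 4 lower laminin chains came without control 1. Itgb1 then ran from -0.0035 to 0.21 and Lamb2 from -0.026 to 0.11. Itgad lost its call without YY1 KO 2 or 3 or control 2 or 3 (edgeR adjusted p 0.0609 to 0.0857). The cause of these changes was not tested. Itgb8 and Lama1 did not pass the filter on low counts, so no difference was tested for them.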
